A study of Mus musculus with 60 samples.

Results

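Untreated spleen from old mice was compared with kidney, liver, lung, skeletal muscle and skin by RNA sequencing of whole tissue. The 5 spleen libraries were chosen by their tissue label and the absence of doxycycline, out of 60 libraries in the series, and stood against the 25 untreated libraries of the other 5 tissues, with 5 libraries per tissue. In each tissue 3 libraries came from 4F mice of 22 months, 2 females (replicates 1 and 2) and 1 male (replicate 3). 4F mice are heterozygous for a doxycycline-inducible cassette of Oct4, Sox2, Klf4 and c-Myc and for the R26::rtTA transactivator, on a C57BL/6 background, and these had not been given the drug. The other 2 libraries of each tissue came from C57BL/6 males without the cassette (B6), aged 25 months by the sample labels and 26 months by the series text. The 30 libraries of doxycycline-treated mice served as a second set: 4F mice that drank 1 mg/ml doxycycline on 2 days followed by 5 days without, for 10 months from month 12, and B6 males given the same cycle for 5 months from month 20. The 30 untreated libraries held 18517963 to 42569314 counts, and the 5 spleens 23431313 to 35279186. The labels do not say that libraries of a group came from separate animals, so the p-values below measure the spread between these samples, which may in part be technical.

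The spleen filters the blood. Its red pulp holds macrophages that take up worn red cells and return their iron to the body, and in mice it stays a place where red cells, platelets and neutrophils are made. Its white pulp holds B and T cells around small arteries, with a marginal zone of B cells and Siglec1-bearing macrophages at its rim, and its stroma arises from mesenchyme that depends on homeobox factors such as Tlx1 and Nkx2-3. In whole tissue, fewer cells of a type and less RNA per cell cannot be told apart.

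Several libraries stood apart and bear on the results below. 4F spleen replicate 2 carried transcripts of the exocrine pancreas: the 51 listed pancreas genes made up 0.464% of its counts, against 0.04885% in 4F replicate 1 and 0.00428% to 0.0125% in the other 3 spleens. Immunoglobulin genes took 17.8% of the counts of the same library, against 5.15% to 8.55% in the other 4. B6 spleen replicate 2 and 4F spleen replicate 1 were the richest in red cell genes, with 4.64% and 3.23% of counts in globin genes against 0.718% to 0.904% in the other 3. Among the other tissues, B6 liver replicate 2 held 8363 CPM of Cd74 (CPM here are counts scaled to library size by the TMM method) and 283.9 of Siglec1, where the other 4 livers held 170.6 to 342.3 and 9.54 to 21.3. The level of Alb, which hepatocytes make, was 39915 CPM in that liver and 101430 to 159185 in the others.

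Of 20133 genes tested with edgeR's quasi-likelihood test, at a Benjamini-Hochberg adjusted p of 0.05 within each comparison, spleen was higher than kidney for 6072 (30.2%), than liver for 6220 (30.9%), than lung for 4317 (21.4%), than skeletal muscle for 6580 (32.7%) and than skin for 5296 (26.3%). It was lower than the same tissues for 6194 (30.8%), 5426 (27%), 4521 (22.5%), 6057 (30.1%) and 6468 genes (32.1%). Spleen was higher than all 5 tissues for 1614 genes (8.02%), and at least 4-fold higher than each of them for 603 (3%). It was lower than all 5 for 856 genes (4.25%), and at least 4-fold lower for 262 (1.3%). Without B6 liver replicate 2, 7447 genes were higher than in liver, 1922 higher than in all 5 and 682 at least 4-fold. Without 4F spleen replicate 1, 1331 were higher than in all 5 and 542 at least 4-fold. Of the 603, 442 code for proteins, 51 are immunoglobulin or T cell receptor V or J segments, and 7 belong to the pancreas list, which leaves 596 once those are set aside. For 410 of the 603 (68%) the tissue closest to spleen was lung, followed by skin for 69 (11.4%), liver for 67 (11.1%), kidney for 34 (5.64%) and skeletal muscle for 23 (3.81%). In 337 of the 603 (55.9%) every spleen library lay above all 25 others, as it did for 756 of all genes tested (3.76%). At the threshold, Ccdc18 (2.01), Dsn1 (2.02) and Ift140 (2.02) lay just inside by their smallest log2 fold change over the 5 tissues, and Atad2, Lyl1 and Rad51c (1.99 each) just outside.

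Per kb of transcript, the globin genes Hbb-bs (13077 CPM per kb) and Hbb-bt (3813) had the highest mean spleen levels among the 603 genes, with Hba-a1 (2750) and Hba-a2 (1719) after them. The globin copies are nearly identical in sequence, so counts may have been split between them. The next were the antibody gene Ighg3 (1050), the neutrophil granule gene Ngp (797), the haem synthesis gene Alas2 (411), Camp (351), the red cell anion exchanger Slc4a1 (324) and the B cell receptor subunit Cd79b (242). The place of Ighg3 rests on 1 library, at 11657 CPM in 4F replicate 2 and 54.8 to 920.3 in the other 4 spleens.

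Factors of the spleen's own mesenchyme were nearly absent from the other tissues. Of the 8 listed, 7 passed the filter on low counts, and 4 of them, Tlx1, Nkx2-3, Nkx2-5 and Nkx3-2, were at least 4-fold higher in spleen than in all 5 tissues. These 4 had almost no counts in the other tissues, so they passed that filter through their spleen counts. They could only come out higher in spleen, and their number is a description and not support. Tlx1 (ENSMUSG00000025215, chr19:45150680-45156943 in GRCm38, plus strand), a homeobox gene without which mice form no spleen, stood at 12.1, 39.1 and 15.3 CPM in the 4F spleens and 38.3 and 22.0 in the B6 spleens. No other library exceeded 0.153 CPM, so the groups did not overlap. Its nearest tissue was kidney, at a log2 fold change of 9.28 (SE 0.89, edgeR adjusted p = 4.11e-08). All 5 lungs were without a count, which puts the level in spleen at least 1643-fold higher against a floor of 3 counts over the group. Tlx1 had the largest nearest-tissue difference of the 25 genes named under the fixed rule for high genes, which also required that libraries not overlap.

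Nkx2-3, which shapes the vessels and compartments of the spleen, was measured at 6.14, 13.9, 8.31, 15.3 and 5.69 CPM in the 3 4F and the 2 B6 spleens, and at no more than 0.204 elsewhere. Its nearest tissue was liver (log2 fold change 7.49, SE 0.94, adjusted p = 1.11e-06), and it was at least 639.2-fold higher than the lung, where no count was found. Nkx2-5, better known from the heart, lay at 1.48, 3.83, 3.39, 4.11 and 1.94 CPM, with lung nearest (5.02, SE 0.66, adjusted p = 1.1e-05). Nkx3-2 was low, at 0.856, 2.79, 1.87, 3.45 and 0.859 CPM, and was without a count in every kidney, liver, lung and skin library. Against the floor it was at least 61.52-fold higher than in liver and 127.2-fold higher than in lung. The spleen libraries of these 3 genes all lay above every other library. These 4 genes met the 4-fold rule also with the 3 4F libraries of each tissue alone and with the 2 B6 libraries of each tissue alone, and DESeq2 called 3 of them.

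Other genes of that list were shared with other organs. Tcf21, a factor of visceral mesenchyme, was at 18.7, 46.1, 20.7, 63.2 and 27.8 CPM in spleen and at 16.0 to 24.7 in kidney and 30.6 to 58.1 in lung, so spleen overlapped both. It was higher than in skeletal muscle (10.52, adjusted p = 2.3e-06) and skin (5.30, adjusted p = 0.00025). Wt1, made also by kidney podocytes, differed from kidney by 0.06 (SE 0.68, adjusted p = 0.96) and was higher than in the other 4 tissues.

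Other stromal genes of the spleen followed the first pattern, as did Hs3st2, whose cell of origin was not tested. Nr5a1, which in the spleen is made by vascular endothelium, was at 11.4, 32.3, 10.3, 16.1 and 11.04 CPM, against at most 0.187 in any other library (nearest tissue skin, 7.81, SE 0.75, adjusted p = 9.19e-09). Its highest value, in 4F replicate 2, stood apart from the other spleens. Madcam1, an adhesion molecule that lines the marginal sinus in the mouse, was at 17.5, 4.53, 23.3, 18.97 and 15.2 CPM. It was at least 545.4-fold higher than in skeletal muscle, which held no count, and lung was nearest at 6.93 (SE 0.94, adjusted p = 4.89e-06). Coch, a secreted protein known from the inner ear and from follicular dendritic cells, was the most abundant of these, at 216, 357, 337, 688 and 186 CPM, with skin nearest at 5.94 (SE 0.80). Hs3st2, which sulfates heparan chains, lay at 10.98, 8.62, 3.17, 7.13 and 3.09 CPM and at no more than 0.204 elsewhere. In each of these 4 genes the spleen libraries lay above all others, as the rule required.

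Among signals and adhesion molecules of lymphoid stroma few passed in every comparison. Of the 8 listed, 6 were tested and 2, Madcam1 and Il7, were higher than in all 5 tissues, as were 8.02% of all genes. Il7, which keeps lymphocytes alive, was at 6.06, 18.3, 10.4, 11.8 and 4.93 CPM and only just passed against lung (1.06, SE 0.43, adjusted p = 0.049). Cxcl13, which draws B cells into follicles, was at 61.5 to 149.2 CPM in the 5 spleens and was higher than in kidney (3.88) and skeletal muscle (5.32). It did not pass against liver (-1.18, adjusted p = 0.46), where B6 replicate 2 held 2990 CPM against a median of 23.7. Lung (1.21, adjusted p = 0.41) and skin (1.91, adjusted p = 0.18) did not pass either.

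**Figure D1:**
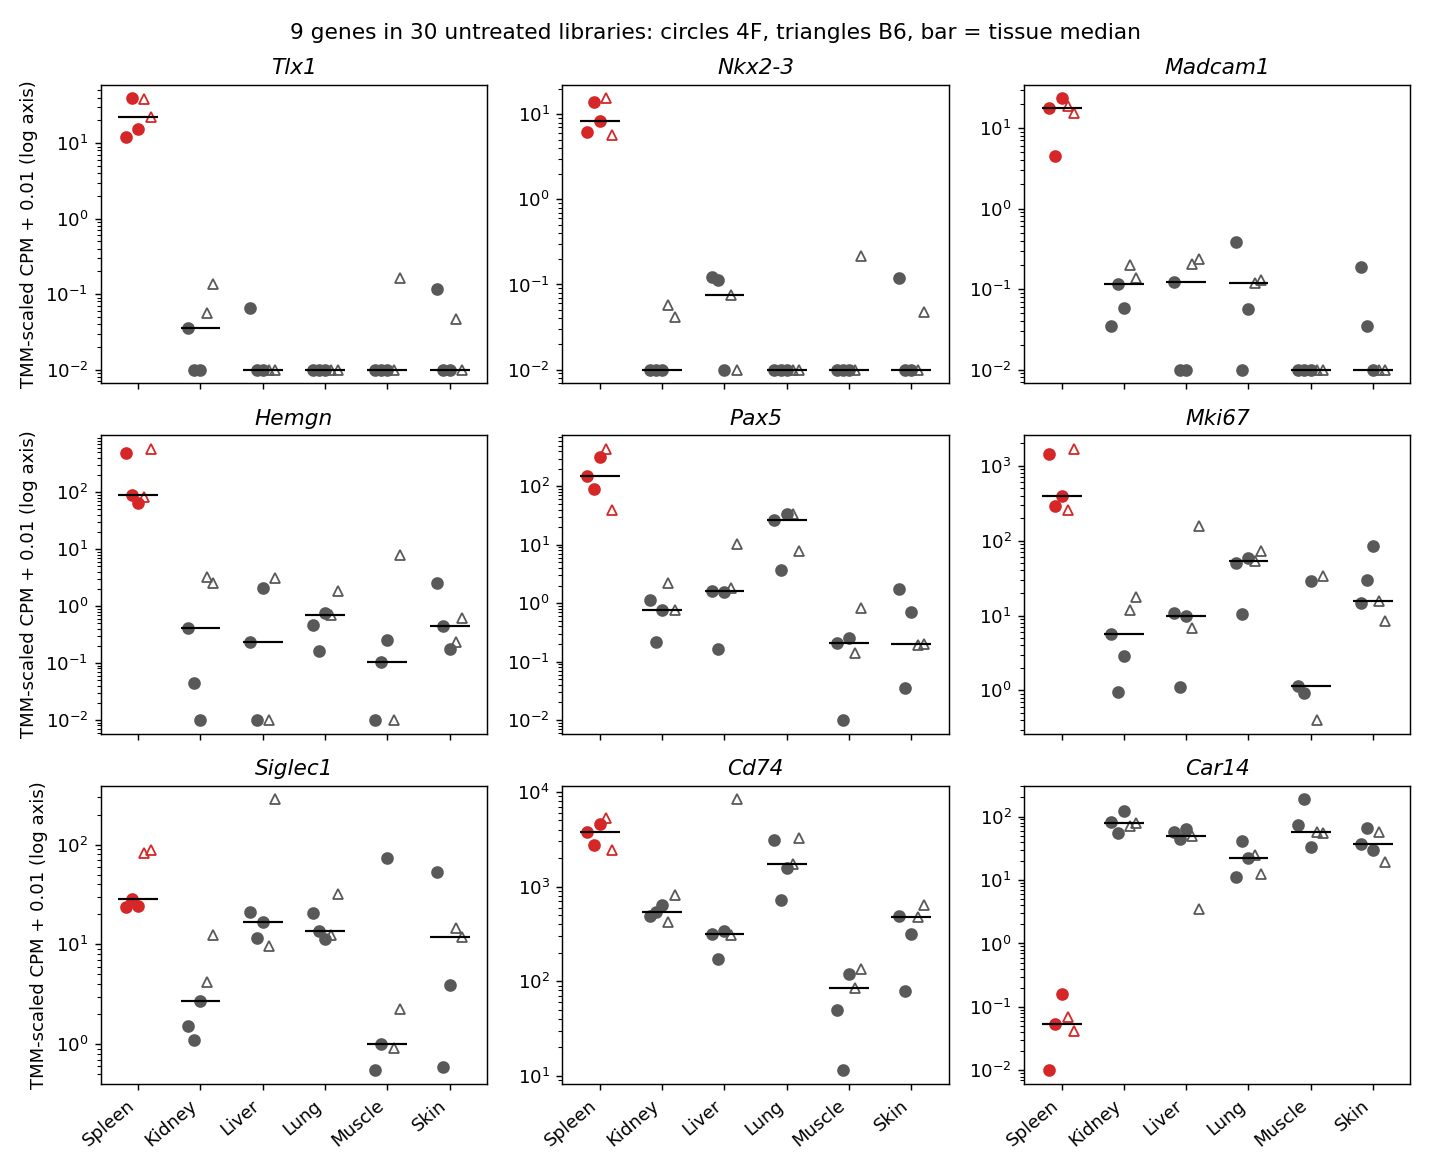
Levels of 9 genes in the 30 untreated libraries by tissue, as TMM-scaled CPM plus 0.01 on a log axis; circles are 4F, triangles B6, and the bar is the tissue median. Spleen libraries lie above all others for Tlx1, Nkx2-3, Madcam1, Hemgn, Pax5 and Mki67 and below all others for Car14. Siglec1 and Cd74 overlap with lung and with liver, where B6 replicate 2 reaches 283.9 and 8363 CPM. Siglec1 overlaps with skeletal muscle and skin as well.

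Genes of red cell production were higher in spleen almost throughout. Of 24 erythroid genes tested, 22 were higher in spleen than in all 5 tissues, 21 of them at least 4-fold, where the background was 8.02% and 3% of all genes. All 24 were higher than in kidney and lung, 23 than in liver and skin and 22 than in skeletal muscle. Median log2 fold changes were 5.87, 6.59, 5.60, 7.05 and 7.05 for kidney, liver, lung, skeletal muscle and skin, where the medians over all genes were 0.029, 0.19, 0.16, 0.10 and -0.070. The exceptions were Fech and Sptb. Fech, the last enzyme of haem synthesis, did not pass against liver (0.60, adjusted p = 0.21) or skeletal muscle (0.23, adjusted p = 0.64), and Sptb, a spectrin shared with muscle, did not pass against skeletal muscle (-0.82, adjusted p = 0.20) or skin (0.69, adjusted p = 0.28).

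Of the 25 genes named under the rule for high genes, 10 are on the erythroid list. Hemgn (ENSMUSG00000028332, chr4:46393989-46413506 in GRCm38, minus strand), a nuclear protein of red cell precursors, was at 485.3, 87.4 and 64.3 CPM in the 4F and 82.7 and 571.6 in the B6 spleens. The highest value elsewhere was 7.97, in a skeletal muscle library, and skin was the nearest tissue at 8.05 (SE 1.51, adjusted p = 8.1e-05), or 6.82 without 4F spleen replicate 1. Rhag and Rhd, which carry the Rh blood group complex, gave nearest-tissue values of 7.43 and 7.15, both against skeletal muscle. Kel, the Kell blood group protease, was at 245.5, 51.8, 42.5, 39.7 and 451.5 CPM (nearest skin, 6.85, SE 1.22). In all of these, 4F replicate 1 and B6 replicate 2 were several times above the other 3 spleens, and even the lowest spleen was above every other library.

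Red cell membrane genes moved likewise. Epb42, of the membrane skeleton, and Ermap, a red cell adhesion protein, had nearest-tissue log2 fold changes of 6.35 and 6.97. Hbb-bs, the adult beta globin, was at 14862, 4128, 2843, 3607 and 24776 CPM, and differed least from lung (2.36, SE 0.67, adjusted p = 0.0065). Globin RNA was found in every organ, up to 3176 CPM of Hbb-bs in a lung, and there the spleen and other libraries overlapped.

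Of the rest of the named genes, Redrum, a long noncoding RNA first described in red cells, was at 19.01, 1.47, 2.78, 3.03 and 27.45 CPM and at least 586.8-fold higher than in skin, where it had no count. Asb17os, an antisense transcript, was at 6.40, 2.82, 1.21, 1.11 and 16.4 CPM; whether the counting used strand is not given in the sources used here, so reads of its partner gene cannot be told apart. The claudin gene Cldn13 (7.50), Btnl10 (7.47), Trim58 (6.74), Samd11 (6.47), Tspo2 (6.40), Ctse (6.10), Trim10 (6.00), Hbq1b (5.86) and Apol11a (5.86) were others of the 25, by their nearest-tissue log2 fold change. All 9 had their highest values in 4F replicate 1 and B6 replicate 2, the spleens rich in red cell genes. Apol11a reached 33.9 CPM in 4F replicate 1 and 0.33 to 7.79 in the other spleens.

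The summed level of the erythroid list was 35397, 9010 and 6507 CPM in the 4F and 7970 and 55487 in the B6 spleens, and at most 5709 in any other library, a lung. Without the spleens 4F replicate 2 and B6 replicate 2, 21 genes were higher than in all 5 tissues and 18 at least 4-fold. With the 4F libraries alone both counts were 15, and with the B6 libraries alone both were 1.

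The promoters of 5 genes are shown because 3 stand for the erythroid group, 1 for the dividing cells and 1 for the spleen mesenchyme. Each runs from 250 bases before to 50 after the start site in RefSeq on GRCm38.p6, written 5' to 3' along the gene, with capitals marking AGATAA or its reverse TTATCT in the first 3 and CCAAT or its reverse ATTGG in the last 2.
Hemgn (chr4:46404134-46404433, minus strand): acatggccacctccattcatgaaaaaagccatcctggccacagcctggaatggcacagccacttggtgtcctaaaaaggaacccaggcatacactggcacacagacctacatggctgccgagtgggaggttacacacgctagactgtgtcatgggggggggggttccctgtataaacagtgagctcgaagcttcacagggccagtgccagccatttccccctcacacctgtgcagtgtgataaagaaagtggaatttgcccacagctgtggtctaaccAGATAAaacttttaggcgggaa
Kel (chr6:41704276-41704575, minus strand): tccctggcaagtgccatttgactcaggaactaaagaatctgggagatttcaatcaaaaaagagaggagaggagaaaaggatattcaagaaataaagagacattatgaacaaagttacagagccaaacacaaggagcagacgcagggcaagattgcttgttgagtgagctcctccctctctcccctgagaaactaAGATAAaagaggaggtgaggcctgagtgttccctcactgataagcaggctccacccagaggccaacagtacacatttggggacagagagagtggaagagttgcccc
Alas2 (chrX:150547167-150547466, plus strand): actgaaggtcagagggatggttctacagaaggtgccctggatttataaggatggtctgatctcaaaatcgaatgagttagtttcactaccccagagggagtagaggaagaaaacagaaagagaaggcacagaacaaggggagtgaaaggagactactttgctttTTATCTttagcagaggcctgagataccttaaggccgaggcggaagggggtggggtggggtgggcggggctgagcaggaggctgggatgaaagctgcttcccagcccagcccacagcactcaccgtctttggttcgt
Mki67 (chr7:135716330-135716629, minus strand): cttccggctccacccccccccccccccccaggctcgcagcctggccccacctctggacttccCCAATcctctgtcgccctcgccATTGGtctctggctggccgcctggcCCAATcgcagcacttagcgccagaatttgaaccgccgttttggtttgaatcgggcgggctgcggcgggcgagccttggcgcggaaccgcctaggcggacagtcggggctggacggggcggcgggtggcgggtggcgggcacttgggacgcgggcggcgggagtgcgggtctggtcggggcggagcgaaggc
Tlx1 (chr19:45150465-45150764, plus strand): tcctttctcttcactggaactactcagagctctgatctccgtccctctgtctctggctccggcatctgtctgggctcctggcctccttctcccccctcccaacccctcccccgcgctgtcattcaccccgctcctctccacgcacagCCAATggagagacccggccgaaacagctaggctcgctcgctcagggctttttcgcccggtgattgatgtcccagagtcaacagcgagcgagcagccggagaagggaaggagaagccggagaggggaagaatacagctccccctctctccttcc

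AGATAA, the core letters bound by GATA factors, was found on either strand in 9 of the 19 erythroid genes with a promoter in the table (47.4%), against 3432 of 27025 gene symbols (12.7%). Of B cell genes 0 of 13 held it, of T cell genes 2 of 12 (16.7%), of cell division genes 1 of 16 (6.25%), of megakaryocyte genes 4 of 12 (33.3%) and of MHC class II genes 3 of 7 (42.9%). CCAAT, the core of the box bound by NF-Y, was found in 14 of 16 cell division promoters (87.5%) and in 7 of 7 MHC class II promoters, against 41.1% of all symbols. It was in 10 of 19 erythroid (52.6%) and 4 of 13 B cell promoters (30.8%). In Hemgn the match began 29 bases after the start site, in Kel at -56 and in Alas2, on the opposite strand, at -86. Mki67 held 3 matches of CCAAT and Tlx1 held 1, at -103. These matches describe the letters in the window and not binding. The 5 genes were picked with their matches known. The KLF motif was in 1 of 19 erythroid promoters (5.26%) against 4.09% of all symbols, and the E-box GATA composite in 0 of 19 against 0.311%. Of 6 mesenchyme promoters 3 held the NF-Y motif (50%).

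Cell division genes were higher in spleen throughout. All 20 genes tested of the cell division list were higher than in all 5 tissues, and 19 at least 4-fold, against 8.02% and 3% of all genes. Their median log2 fold changes were 5.67, 4.06, 3.54, 5.76 and 4.05 for kidney, liver, lung, skeletal muscle and skin. Mki67 (ENSMUSG00000031004, chr7:135689784-135716361, minus strand), which marks cycling cells, was at 1429, 291.1 and 400.3 CPM in the 4F and 255.3 and 1683 in the B6 spleens. The highest value elsewhere was 156.4, in B6 liver replicate 2, so the groups did not overlap. Lung was nearest (4.34, SE 1.18, adjusted p = 0.0045). Rrm2, which makes deoxynucleotides, was at 270.3, 73.9, 92.8, 68.0 and 512.7 CPM (nearest liver, 3.92, SE 0.69), Birc5, a mitotic regulator, was nearest to lung at 4.05, and the cyclin Ccnb2 at 3.82. The summed level was 4141, 1083 and 1509 CPM in the 4F and 921.9 and 5648 in the B6 spleens, with the same 2 libraries highest as for the erythroid genes. The part of the erythroid cells in this was not tested. Without 4F spleen replicate 1, 17 of the 20 were called, and with the B6 libraries alone 0.

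Genes of the other blood lineages made in the red pulp were higher in spleen in smaller numbers. Of 16 neutrophil genes, 6 were at least 4-fold higher than in all 5 tissues, as were 3% of all genes. Without the spleens 4F replicate 2 and B6 replicate 2 there were 3 such neutrophil genes. Ngp, a granule protein of immature neutrophils, was at 656.1, 935.2, 546.1, 131.1 and 2598 CPM, and its nearest tissue was liver (4.48, SE 1.69, adjusted p = 0.026), where B6 replicate 2 reached 397.1. The call of Ngp was lost without any 1 of the 4F livers or without 4F spleen replicate 3, at 4.08 to 4.41. Camp (nearest 5.04), Elane (4.25) and Fcnb (5.21), also of granule-forming cells, had liver nearest too. S100a8 (2.24, adjusted p = 0.12) and Ltf (2.57, adjusted p = 0.17), which mature neutrophils also hold, did not pass against lung. Lcn2, made by liver as well, did not pass against liver (-1.68, adjusted p = 0.19) or lung (-0.32, adjusted p = 0.83). The summed level ran from 697.9 CPM in B6 replicate 1 to 12232 in B6 replicate 2.

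Of 16 megakaryocyte genes 5 were higher in all 5 comparisons, 3 at least 4-fold, against 8.02% and 3% of all genes. Without 4F spleen replicate 1 these counts were 3 and 0. Of the 16, 2 were lower than in lung and 1 lower than in skeletal muscle. The summed level of the list was 334 to 1387 CPM in spleen and 447.1 to 1675 in lung. Ppbp, a platelet chemokine, was at 235.9, 79.9, 171.8, 99.96 and 350.8 CPM, with lung nearest (2.78, SE 0.99, adjusted p = 0.025), and one lung at 146.9 overlapped. Its call was lost without any 1 of the 4F lungs, B6 lung replicate 1 or 4F spleen replicate 1, at 2.38 to 2.76. Gp9, a platelet glycoprotein, was also nearest to lung (2.24). Pf4 was higher than in kidney alone (4.73, adjusted p = 0.007). Of 9 progenitor genes Gfi1b was the only one called in all 5, at 76.2, 28.4, 12.2, 14.0 and 90.5 CPM (nearest lung, 5.70, SE 1.06). Against lung 3 of the 9 were higher and 5 lower, at a median of -1.28, where 22.5% of all genes were lower. Myb, which early progenitors need, was higher than in every tissue but lung (adjusted p = 0.25), and Kit was lower than in lung by 1.66.

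Transcription factors of blood lineages were mostly higher in spleen. Of 21 tested, 15 were higher than in all 5 tissues and 13 at least 4-fold, against 8.02% and 3% of all genes. Against lung 16 were higher (21.4% of all genes), at a median of 2.32. Gata1 (nearest 5.21) and Klf1 (nearest 3.84, liver), which drive red cell formation, were at 25.0 to 244.7 and 29.4 to 295.5 CPM in the spleens and did not overlap the other tissues. Spi1, the myeloid factor, was even across spleens, at 61.2 to 92.7 CPM, and did not pass against liver (1.25, adjusted p = 0.26) or lung (0.98, adjusted p = 0.41).

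**Figure D2:**
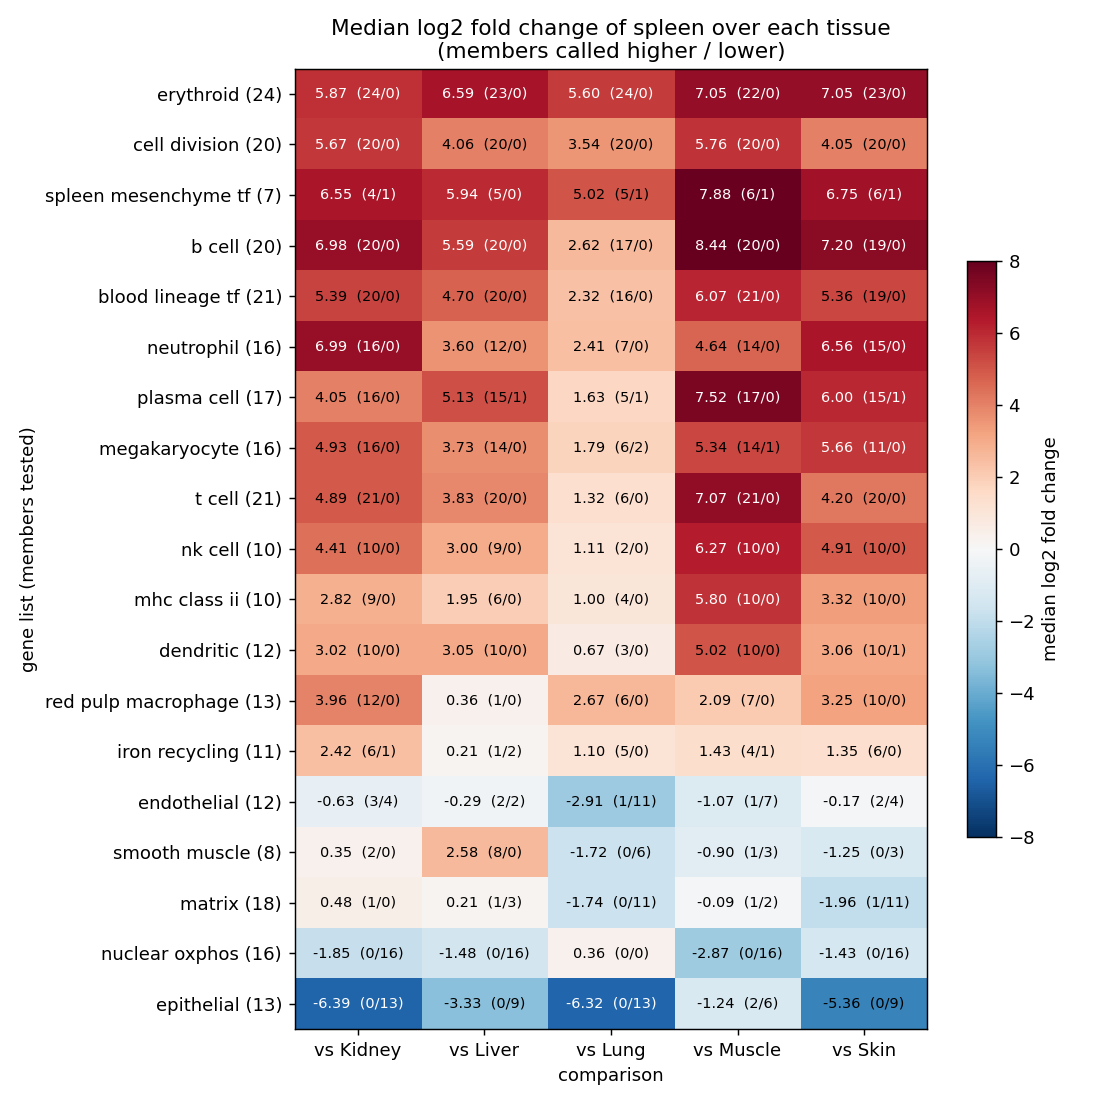
Median log2 fold change of spleen against each of the 5 tissues for 19 gene lists, with the members called higher and lower printed in each cell; for the mesenchyme list, members at 0 in a tissue enter at their bound. Medians are positive in every column for the mesenchyme and cell division lists and for all blood, immune and iron lists drawn. Lung is the closest column for the B and T cell lists (2.62 and 1.32) and liver for the red pulp macrophage list (0.36). The epithelial list is lower in every column.

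Of the white pulp lists, that of B cells had the most members higher in spleen than everywhere else. Of 20 B cell genes, 16 were at least 4-fold higher than in all 5 tissues, as were 3% of all genes. All 20 were higher than in kidney, liver and skeletal muscle, 19 than in skin and 17 than in lung, with medians of 6.98, 5.59, 8.44, 7.20 and 2.62. Pax5, which holds B cell identity, was at 148.5, 89.1, 317.0, 438.5 and 39.3 CPM, against at most 34.1 in a lung, and its nearest difference was 3.23 (SE 0.90, adjusted p = 0.0051). Cd79a, a signalling chain of the B cell receptor, was at 106.0, 141.9, 204.6, 303.9 and 46.3 CPM (nearest lung, 3.12, SE 0.83). Cr2, the complement receptor of mature and marginal zone B cells and of follicular dendritic cells, was at 31.9, 54.05, 310.6, 322.2 and 55.3 CPM (nearest lung, 3.77, SE 0.99, adjusted p = 0.0035). All 3 separated spleen from every other library. Across the spleens the order was unlike that of the red cell genes: 4F replicate 3 and B6 replicate 1 were highest, and B6 replicate 2 was lowest for Pax5 and Cd79a.

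Ighm, the IgM heavy chain, was the most abundant gene of the B cell list, at 13348, 11166, 16149, 27232 and 18105 CPM, but did not pass against lung (2.06, SE 1.17, adjusted p = 0.16), where values ran from 480 to 7060, below every spleen. Fcer2a, the CD23 of follicular B cells, did not pass there either (1.89, adjusted p = 0.086), with 4.82 to 208.4 CPM among the spleens. Without 4F spleen replicate 1, 12 B cell genes were called in all 5, with the 4F libraries alone 6 and with the B6 libraries alone 0.

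Cd74 was higher in spleen than in kidney, skeletal muscle and skin and did not pass against lung or liver. The gene encodes the invariant chain of MHC class II and was at 3820, 2756, 4566, 5361 and 2451 CPM in spleen. Kidneys held 421.5 to 817.1, skeletal muscles 11.4 to 133.2 and skins 77.9 to 633.0, all below spleen, while lungs reached 3297 and B6 liver replicate 2 8363. The log2 differences were 2.72 from kidney (adjusted p = 0.0046), 5.79 from skeletal muscle (adjusted p = 7.1e-06) and 3.38 from skin (adjusted p = 0.0011). Against lung it did not pass (0.88, SE 0.75, adjusted p = 0.35), nor against liver (1.58, SE 0.80, adjusted p = 0.094). Without B6 liver replicate 2 the liver comparison gave 3.68 (adjusted p = 8.29e-06), and the lung one 0.85 (adjusted p = 0.149).

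Of 10 MHC class II genes 9 were higher than in kidney, 6 than in liver, 4 than in lung and 10 than in skeletal muscle and in skin. Without B6 liver replicate 2, 10 were higher than in liver, at a median of 3.91 in place of 1.95. The 4 called in all 5 tissues, each at least 4-fold, were H2-Oa, H2-Ob, H2-DMb2 and Ciita. Over all genes 3% met that rule. H2-Oa and H2-Ob form H2-O, which B cells use to restrain peptide loading. H2-Oa was at 78.9, 85.8, 108.5, 112.1 and 31.5 CPM against at most 26.5 in a lung (nearest 2.58, SE 0.76, adjusted p = 0.0081), and H2-Ob gave 2.44 there. Ciita, the master switch of the class, was at 212.3, 100.1, 228.6, 260.0 and 35.5 CPM (nearest lung, 2.17, adjusted p = 0.016), and lost the call without 4F spleen replicate 1. H2-Aa, a chain of the presenting molecule itself, did not pass against lung (0.84, adjusted p = 0.38).

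Siglec1 (ENSMUSG00000027322, chr2:131069220-131086765 in GRCm38, minus strand) is the sialic acid receptor of marginal metallophilic macrophages. It was at 23.8, 28.3 and 24.1 CPM in the 4F and 83.2 and 88.0 in the B6 spleens. Kidneys reached 12.5 CPM, below every spleen, while liver B6 replicate 2 (283.9), skeletal muscle 4F replicate 3 (72.8) and skin 4F replicate 1 (53.7) lay above the 4F spleens, and a lung reached 32.3. Spleen was higher than kidney (3.65, SE 1.26, adjusted p = 0.0149). The differences from liver (-0.26, adjusted p = 0.868), lung (1.19, adjusted p = 0.42), skeletal muscle (2.07, adjusted p = 0.24) and skin (0.95, adjusted p = 0.51) did not pass. Without 6 libraries that carry transcripts of another tissue or have an extreme make-up, named with the limits at the end, skeletal muscle (5.34) and skin (2.91) passed as well, and liver (1.04, adjusted p = 0.176) and lung (1.13, adjusted p = 0.163) did not. Single libraries decided 2 of these: skeletal muscle gave 5.475 (adjusted p = 0.00016) without its 4F replicate 3, and skin 3.398 (adjusted p = 0.0186) without its 4F replicate 1.

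Genes of specialised B cells were uneven across the spleens. Over all genes, 8.02% were higher than in all 5 tissues and 3% at least 4-fold. Of 7 marginal zone genes 2, Madcam1 and Dtx1, were at least 4-fold higher than in all 5 tissues. Dtx1, a Notch pathway gene of marginal zone B cells, was at 34.7, 47.3, 97.9, 138.3 and 25.4 CPM, above every other library (nearest lung, 2.98, SE 0.46, adjusted p = 1.3e-05). Marco, a receptor of marginal zone macrophages, did not pass against liver (0.30, adjusted p = 0.78) or lung (1.55, adjusted p = 0.15), and Cd1d1 was lower than in liver by 4.11. Of 7 germinal centre genes 4 were higher in all 5 tissues, 1 of them (Rgs13) at least 4-fold, and without 4F spleen replicate 1 these counts were 1 and 0. Rgs13 was at 23.95 and 30.5 CPM in 4F replicates 1 and 3, and at 0.659 to 0.827 in the other 3. Bcl6 did not pass in kidney, liver, lung or skeletal muscle and was lower than in skin by 1.29. Of 5 genes tied to age-associated B cells 2 were at least 4-fold higher in all 5: Fcrl5 (nearest lung, 3.16, adjusted p = 0.006) and Tbx21 (2.34, adjusted p = 0.0017). Itgax, on that list and on dendritic cells, did not pass against lung (0.47, adjusted p = 0.70).

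Plasma cell genes were highest in 1 library. Of 17 plasma cell genes 5 were higher than in all 5 tissues and 4 at least 4-fold, against 8.02% and 3% of all genes. Without 4F spleen replicate 2 these counts were 4 and 1. The summed level was 119643 CPM in that library and 24281 to 26873 in the other 4. Ighg3 was at 86.3, 11657, 54.8, 465.3 and 920.3 CPM, and its call was lost without 4F replicate 2 (2.02). Igha was at 4320, 36890, 3220, 1338 and 692.9. Igkc, the kappa light chain, was at 13968, 53394, 16605, 19069 and 17215, and Jchain, which joins IgA and IgM units, at 1582, 6744, 1740, 1653 and 1261. All 4 were thus highest in the library that also carried the pancreas genes, in which Ighm was lowest. Mzb1, a chaperone of antibody assembly, was steadier at 148.2, 271.6, 223.8, 183.3 and 141.7 CPM and lay above every other library (nearest lung, 2.12, SE 0.65, adjusted p = 0.010). Irf4 (2.19) and Derl3 (2.14) did so too, with lung nearest. Jchain did not pass against lung (1.32, adjusted p = 0.35), where it reached 2887 CPM.

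Each of the 5 spleens had a different leading heavy chain V segment. Of the counts in heavy chain V segments, Ighv1-12 took 38.2% in 4F replicate 1 (20936 of 54750, Wilson 95% interval 37.83% to 38.65%), where it took at most 1.19% in the other 4 untreated spleens. Ighv1-67 led in 4F replicate 2 with 24.7%, and Ighv1-80 in B6 replicate 1 with 28.7%, against at most 0.846% and 1.17% in the other untreated spleens. Ighv5-9-1 led in B6 replicate 2 with 12.9%, and Ighv5-6 in 4F replicate 3 with 6.11%, the lowest leading share of the 5. Among kappa segments Igkv4-55 took 51.8% in 4F replicate 1 and 21.8% in B6 replicate 1. Igkv3-5 took 23.6% in 4F replicate 2 and Igkv3-4 31.1% in B6 replicate 1, against at most 1.07% and 2.25% in the other untreated spleens. Igkv5-39 led in 2 spleens, with 31.6% in 4F replicate 3 and 34.3% in B6 replicate 2. The intervals cover counting error only, and since V segments are near copies of one another, the authors' counting may have split or moved reads between them.

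**Figure D3:**
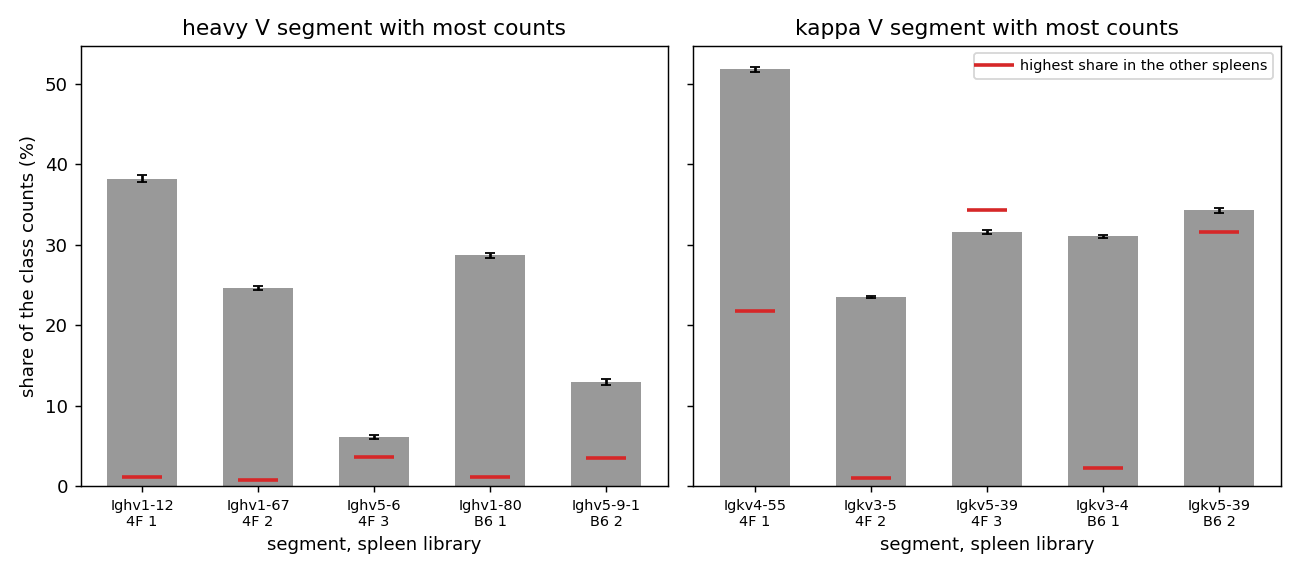
Share of heavy chain (left) and kappa (right) V segment counts taken by the most counted segment of each of the 5 untreated spleens, in percent, with Wilson 95% intervals; the red line is the highest share of that segment in any other untreated spleen. Heavy chain leaders run from 6.11% to 38.2%, each above its red line, while Igkv5-39 leads in 2 spleens.

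T cells, natural killer cells and dendritic cells distinguished spleen from 4 of the tissues and mostly not from lung. Of 21 T cell genes 21 were higher than in kidney and in skeletal muscle, 20 than in liver and in skin and 6 than in lung, where 21.4% of all genes were higher, with a median against lung of 1.32. Called in all 5 were 5 genes, 0 of them at least 4-fold, and this count was 2 without 4F spleen replicate 1 or without replicate 2, and 9 without B6 spleen replicate 2 or without B6 liver replicate 2. Lck, the kinase of the T cell receptor, was at 106.1, 138.4, 146.3, 139.0 and 45.6 CPM (nearest lung, 1.78, SE 0.59, adjusted p = 0.017). Cd5 (1.75, adjusted p = 0.049), Cd2 (1.59, adjusted p = 0.044) and Ccr7 (1.58, adjusted p = 0.043) only just passed. Cd4 did not (1.86, SE 0.90, adjusted p = 0.096), at 78.3, 74.6, 120.4, 101.7 and 17.2 CPM. B6 replicate 2, the spleen richest in red cell and neutrophil genes, was lowest for each of these. Its summed T cell level was 349.3 CPM against 813.2 to 1308 in the other 4.

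Foxp3, the factor of regulatory T cells, was at 20.4, 16.2, 26.3, 14.3 and 5.69 CPM and was at least 4-fold higher than in all 5 tissues (nearest lung, 2.29, SE 0.83, adjusted p = 0.028). The call was lost without 4F spleen replicate 3 (1.85), or without 4F lung replicate 2 (2.02) or 3, or either B6 lung. Of 10 genes tied to regulatory and aged T cells it was 1 of 3 called in all 5, with Lag3 (nearest 1.98) and Tnfrsf4 (nearest 1.22) under 4-fold. Over all genes 8.02% were called higher in all 5. Of 10 natural killer genes 2 were called in all 5, Tbx21 and Il2rb (nearest 1.99, adjusted p = 0.015), and of 12 dendritic genes 3, none at 4-fold: Ccr9 (1.78), Irf8 (1.72) and Batf3 (1.29). Irf8 was abundant, at 389.1, 231.6, 406.0, 374.1 and 168.9 CPM, and did not overlap the other tissues. Its call was lost, at 1.503 to 1.74, without 4F spleen replicate 1 or 3, B6 spleen replicate 1, 4F lung replicate 2 or 3, or B6 lung replicate 1. Of 12 homing receptors 3 were called: Cxcr5, which follows Cxcl13 into follicles (nearest lung, 2.58, adjusted p = 0.015), Ccr7 and S1pr4 (1.25, adjusted p = 0.018). S1pr1, by which lymphocytes leave and which endothelium also carries, was lower than in lung by 1.72.

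Few genes of red pulp macrophages passed against liver. Of 13 tested, 12 were higher than in kidney, 10 than in skin, 7 than in skeletal muscle, 6 than in lung and 1 than in liver. Over all genes these shares were 30.2%, 26.3%, 32.7%, 21.4% and 30.9%, and 8.02% were higher than in all 5. The liver median of the list was 0.36, and 1.64 with 3 genes called once B6 liver replicate 2 was left out. Spic (ENSMUSG00000004359, chr10:88674772-88685015 in GRCm38, minus strand), the factor that red pulp macrophages need, was the gene called in all 5. It was at 44.4, 99.5 and 36.4 CPM in the 4F and 76.55 and 91.97 in the B6 spleens, above every other library. Its nearest tissue was liver, at 2.94 (SE 0.97, adjusted p = 0.012), where values ran from 3.61 to 25.0. Vcam1, which these macrophages carry on their surface, was at 382.7, 755.3, 369.9, 618.2 and 1211 CPM and did not pass against liver (1.76, adjusted p = 0.099). Cd5l was higher than in kidney (7.01) and skin (6.59) and did not pass against liver (-1.68, adjusted p = 0.32), which held 219.6 to 1835 CPM. Spic lost the call in all 5 without the spleens 4F replicate 2 and B6 replicate 2, and without the 6 libraries named with the limits 3 genes of the list were called.

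Iron handling followed the same line. Hmox1, which breaks down haem, was at 348.0, 556.8, 223.3, 551.9 and 845.2 CPM and did not pass against liver (1.06, adjusted p = 0.35) or skeletal muscle (2.09, adjusted p = 0.12). Slc40a1, the iron exporter ferroportin, was higher than in kidney (2.42), lung (4.01), skeletal muscle (1.40) and skin (3.68) and differed from liver by 0.15 (SE 0.45, adjusted p = 0.80). Tfrc, the transferrin receptor that feeds iron to red cell precursors, was the 1 called in all 5 among 11 iron genes, where 8.02% of all genes were. It was at 957.9, 227.1, 229.5, 184.7 and 2612 CPM, high in the same 2 spleens as the erythroid genes, and its nearest difference, against skeletal muscle, was 1.76 (SE 0.64, adjusted p = 0.020), or 0.54 without B6 spleen replicate 2. Fth1, a ferritin chain, was lower than in kidney, liver and skeletal muscle, by 1.38, 1.22 and 1.34. Vsig4, a marker of Kupffer cells, was lower than in liver by 5.51 (adjusted p = 0.0033).

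**Figure D4:**
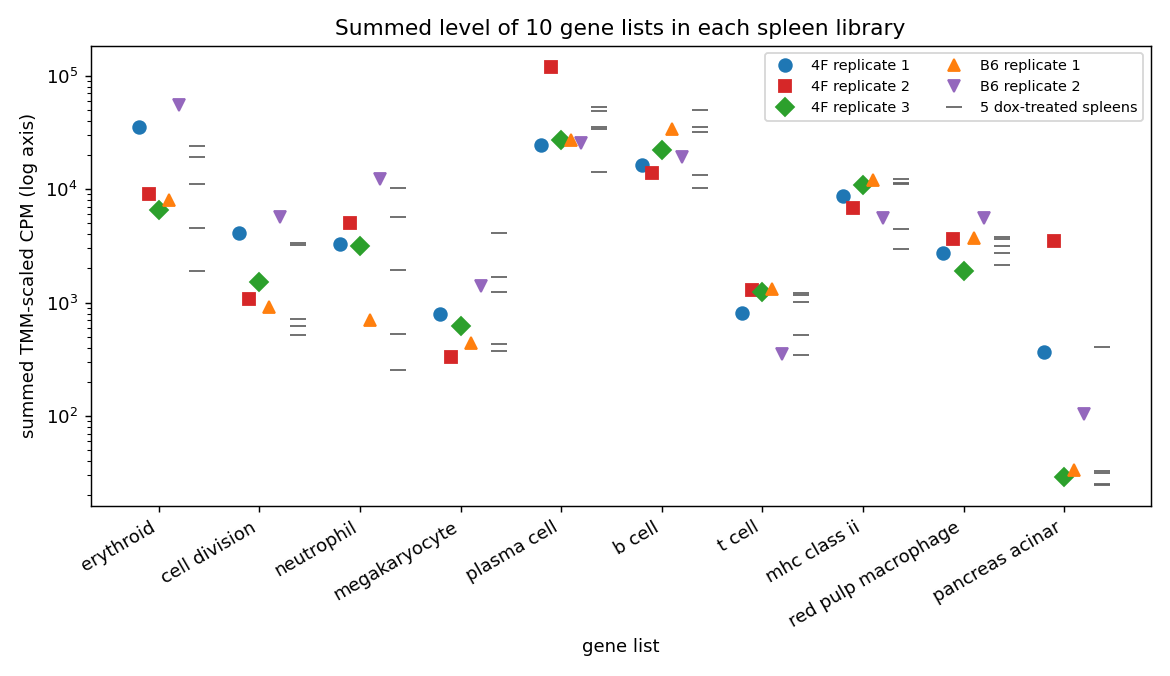
Summed TMM-scaled CPM of 10 gene lists in each untreated spleen library on a log axis, with dashes for the 5 doxycycline-treated spleens. 4F replicate 1 and B6 replicate 2 are highest for the erythroid list (35397 and 55487) and cell division, B6 replicate 2 is lowest for T cells (349.3), and 4F replicate 2 is highest for plasma cells (119643) and pancreas (3496).

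Vessel, matrix and nerve genes did not set spleen above the rest. Of 12 endothelial genes 11 were lower than in lung (22.5% of all genes), at a median of -2.91, and Stab2, the scavenger receptor of sinus endothelium, was higher than in kidney (4.399), lung (4.81), skeletal muscle (1.37) and skin (3.45) but not liver (-0.24, adjusted p = 0.66). All 8 smooth muscle genes were higher than in liver (30.9% of all genes), at a median of 2.58, and 2 were higher than in kidney. Of the same 8, 6 were lower than in lung, 3 than in skeletal muscle and 3 than in skin. Their medians there were -1.72, -0.90 and -1.25, and 1 was higher than in skeletal muscle. Of 18 matrix genes 11 were lower than in lung and 11 than in skin (medians -1.74 and -1.96), and of 7 nerve genes 6 were lower than in skin, where 32.1% of all genes were lower.

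Spleen was low in genes of epithelium and of energy use. Of 13 epithelial genes 13 were lower than in kidney and lung, 9 than in liver and skin and 6 than in skeletal muscle, and 4 were lower than in all 5. Another 2 were higher than in skeletal muscle. The shares of all genes lower than in kidney, liver, lung, skeletal muscle and skin were 30.8%, 27%, 22.5%, 30.1% and 32.1%. Lower than in all 5 were 4.25% of all genes. Cdh1, or E-cadherin, was at 4.09, 3.28, 2.46, 1.59 and 2.16 CPM against 154.2 to 292.9 in lung (-6.62, SE 0.80, adjusted p = 3.9e-07) and did not pass against skeletal muscle (-0.32, adjusted p = 0.69). Of 16 nuclear genes of oxidative phosphorylation all 16 were lower than in kidney, liver, skeletal muscle and skin, with medians of -1.85, -1.48, -2.87 and -1.43, and against lung their median was 0.36. Atp5b, a subunit of ATP synthase, was at 617.3, 444.5, 454.7, 449.6 and 728.9 CPM, against 2369 to 5263 in skeletal muscle. Of 7 adipocyte genes 1, Plin4, was lower than in all 5, narrowly so in lung (-2.24, adjusted p = 0.042).

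The 12 genes named for low expression lay below every other library by rule. Car14 (ENSMUSG00000038526, chr3:95897768-95904691 in GRCm38, minus strand), a membrane carbonic anhydrase, was at 0, 0.044, 0.1475, 0.0599 and 0.0318 CPM in spleen, and at 3.52 to 187.1 elsewhere. Lung was its closest tissue, at a log2 fold change of -8.57 (SE 0.80, adjusted p = 9.96e-09). Serinc2 was at 0.492, 0.176, 0.098, 0.120 and 0.159 CPM, with a least difference of -6.28 (liver, SE 0.53), and the nonmuscle myosin Myh14 at 0.095 to 0.728 CPM, with -6.11 (liver, SE 0.59). Prkaa2, a catalytic subunit of the energy sensor AMPK, was the steadiest, at 1.39, 0.748, 1.38, 1.59 and 1.11 CPM, and was lower than in lung by 4.22 (SE 0.37) and than in skeletal muscle by 8.70 (SE 0.45). The bicarbonate transporter Slc4a4 (-4.35), the alcohol dehydrogenase Adh1 (-4.29), the esterase Ces1d (-4.64), the methyltransferase Inmt (-4.60), the D-aspartate oxidase Ddo (-4.47), the adaptor Grb14 (-5.15), Plekhb1 (-5.50) and the kinesin Kif21a (-5.10) made up the rest, by the difference from the tissue closest to spleen.

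Marker genes of the other organs were low in spleen, with 1 library above the rest in each of 2 cases. All 10 hepatocyte genes were lower than in liver (median -12.37), all 10 kidney tubule genes than in kidney (-12.48), all 10 muscle genes than in skeletal muscle (-15.38), all 9 keratinocyte genes tested than in skin (-14.21) and all 9 lung epithelial genes tested than in lung (-14.42). The keratinocyte median was -14.19 with members at 0 entered at their bound. The shares of all genes lower than in liver, kidney, skeletal muscle, skin and lung were 27%, 30.8%, 30.1%, 32.1% and 22.5%. The summed hepatocyte level was 196.7 CPM in B6 spleen replicate 1, with a median of 4.74 over the 5 spleens, against 62872 to 238330 in liver. The kidney tubule sum was 29.6 CPM in 4F replicate 3, with a spleen median of 3.36, against 13110 to 39192 in kidney.

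The pancreas genes are given apart, though 7 of them stay in the counts over the 603 genes. Of the 51, 16 passed the filter, and 8 had no count in any untreated spleen. Ctrb1, a chymotrypsinogen, was at 36.1, 470 and 1.89 CPM in the 4F and 0 and 0.159 in the B6 spleens, and Cela2a, an elastase, at 39.5, 412.1, 1.72, 0.030 and 0.286. Clps was at 12.5, 365.3, 1.06, 0 and 0.127 and Cela1 at 53.4, 315.1, 9.76, 23.3 and 97.0. All 4 were highest in 4F replicate 2, and Cela1 was present in every spleen and in kidney, at 40.9 to 126.9 CPM. Of the 603 genes, 10 were at least 5 times higher in 4F replicate 2 than in the next spleen: 6 pancreas genes, Ighg3 and the V segments Trbv17, Igkv16-104 and Igkv8-21. The call of Cela2a was lost without that library. The treated B6 spleen replicate 2 held 0.0607% of its counts in the list.

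No difference between the 2 kinds of mice in spleen passed edgeR's test. Between B6 and 4F spleens 0 genes were called by edgeR, 597 (2.97%) had an unadjusted p under 0.05, and DESeq2 called 47. Siglec1 differed by 1.22 (SE 1.70) and Tlx1 by 1.22 (SE 0.96) on the log2 scale, B6 minus 4F, and neither passed. Age, strain and the cassette with its transactivator moved together in these groups and cannot be told apart. The B6 spleens were all from males and the 4F spleens from both sexes, and the model took sex as an effect shared over tissues.

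The doxycycline-treated libraries, fitted by themselves, gave 720 genes (3.61%) at least 4-fold higher in spleen than in all 5 tissues and 313 (1.57%) at least 4-fold lower. Of the 603 genes 440 were among them (73% of the 603 and 61.1% of the 720), and of the 564 that could be tested there, 525 were higher than in all 5, as were 2502 of all genes tested there (12.5%). Of the 262 lower genes 210 were shared (80.2% of the 262 and 67.1% of the 313), and 234 of the 256 tested were lower than in all 5, against 1298 of all genes (6.5%). Of the named genes, 24 of 25 higher and 12 of 12 lower ones met the 4-fold rule again; the exception, Apol11a, did not pass the filter there. Tlx1 was at 14.4 to 36.4 CPM in the treated spleens, Nr5a1 at 15.6 to 29.7 and Spic at 45.3 to 80.0, within or near the untreated range. The erythroid sum was 1890 to 23978 CPM, so at least 1 treated spleen lay below every untreated one, and Hemgn went from 2.05 to 371.6.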

How the data were processed

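The 60 libraries were made from RNeasy RNA with a TruSeq Stranded Total RNA kit, per the labels' protocols. The authors deposited raw counts per gene, in 1 table and in 60 library tables whose values were identical to its columns. The mapping was to GRCm38 per the submitters' processing notes; which aligner and counter were used is not given in the labels. Of 52636 genes, 52489 matched a symbol in the GENCODE annotation of GRCm38.

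The 30 untreated libraries were fitted with edgeR 4.0.16 in R 4.3.3: TMM scaling, a filter on low counts (minimum count 10, minimum total 15) by tissue that left 20133 genes, and a robust quasi-likelihood model of tissue plus kind of mouse (4F female, 4F male, B6 male) with 22 residual degrees of freedom. Each of 5 contrasts was spleen minus 1 tissue, with Benjamini-Hochberg adjustment over all genes at 0.05 within a contrast. B6 and 4F spleens were compared in a model of tissue-by-strain means plus sex, and treated libraries were fitted apart. Levels are TMM-scaled CPM computed from the deposited counts. SE is the absolute log2 fold change over the square root of the F statistic of its test, not a separate estimate. Intervals cover counting error only. Folds against a group without a count use a floor of 3 counts over its libraries.

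Named genes were Siglec1 and Cd74, the 25 highest and 12 lowest among 4-fold genes by their closest tissue (at least 5 CPM, no overlap of libraries, and no predicted genes, V segments or pancreas genes), up to 4 called members of each of the gene lists with up to 3 others of highest level and the one highest elsewhere, and the 4 highest pancreas genes. Alas2, most globins and genes given for threshold, length-scaled level or library checks were named by their own orderings or after their values were seen. Some genes that the rule names are not reported here. Genes and lists were chosen with earlier results of these data known, so their counts are descriptions and not independent support.

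Promoters were 32851 RefSeq windows of 300 bases, for 27025 symbols. Genes of chr18 were left out, so shares of all symbols cover the other chromosomes. Searched on both strands were the GATA motif AGATAA, the E-box GATA composite (which holds AGATAA), the KLF motif CCACACCC, the octamer ATGCAAAT, the ETS motifs GAGGAAGT and AGAGGAAG (which overlap), the CHR motif TTTGAA, the E-box CACGTG, the E2F motif TTTCGCGC, the Y box CTGATTGG (which holds CCAAT reversed) and the NF-Y motif CCAAT. Results are given for the GATA, KLF and NF-Y motifs and the composite. Alternatives were DESeq2 1.42.0, other scaling, filters, fold thresholds and models, each strain alone, a block of title numbers, and leaving out each library.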

Additional observations from a re-analysis of the deposited data

Results flagged for a closer look

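In 19 of 89 groups of 5 libraries 1 library lay apart by Dixon's test, for which the gap to its nearest neighbour had to exceed 0.71 of the range. Chance gives about 1 in 20 only for independent groups of normally distributed values. CPM need not be normal, and several of these groups share genes or libraries, so 19 of 89 cannot be set against that rate. In 4F spleen replicate 2 the plasma cell sum (119643 CPM), the pancreas acinar sum (3496), the islet sum (5.74), Nr5a1 (32.3), Ctrb1 (470), Cela2a (412.1), Clps (365.3) and Cela1 (315.1) were high, and the sum of blood lineage factors (1682) was low. The hepatocyte sum was high in B6 spleen replicate 1 (196.7), and so was Inmt (2.58). The kidney tubule sum was high in 4F spleen replicate 3 (29.6). Apol11a (33.9) and Serinc2 (0.492) were high in 4F spleen replicate 1.

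In the other tissues, B6 liver replicate 2 was high for Cd74 (8363 CPM) and Siglec1 (283.9). Siglec1 was also high in B6 kidney replicate 2 (12.5), in 4F skeletal muscle replicate 3 (72.8) and in 4F skin replicate 1 (53.7).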

How the results depend on the processing

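With the B6 libraries alone, at 2 per tissue, there were 2135 genes higher and 3010 lower than kidney, 964 and 1830 than liver, 327 and 1861 than lung, 3850 and 3740 than skeletal muscle, 1953 and 3155 than skin, 87 higher and 134 lower than all 5, and 66 and 93 at 4-fold. Scaling by library totals alone gave 11523 higher and 2785 lower than liver, 11428 and 3016 than skeletal muscle, 408 lower than all 5 and 154 at least 4-fold lower. That scaling shifted the median of all genes by 0.24 (kidney), 0.93 (liver), -0.063 (lung), 1.08 (skeletal muscle) and 0.32 (skin), and the share of calls that were higher went from 53.4% to 80.5% in liver, from 52.1% to 79.1% in skeletal muscle and from 45% to 56.9% in skin. Without the filter the lung share was 36.9% in place of 48.8%. With the 4F libraries alone 2518 genes were higher than lung and 1008 than all 5. A 2-fold threshold gave 1073 higher and 586 lower genes, and 1482 higher in treated libraries; 8-fold gave 232, 118 and 284. The B6 to 4F comparison gave 47 genes by DESeq2 and 1 without the sex term. The cause of these moves was not tested.

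Leaving out each library in turn gave 5747 to 6461 genes higher and 5638 to 6493 lower than kidney, 5572 to 7447 and 5142 to 5691 for liver, 3577 to 4902 and 4113 to 4862 for lung, 6206 to 7030 and 5779 to 6307 for skeletal muscle, and 4867 to 5733 and 6025 to 6906 for skin. It gave 1331 to 1922 higher and 698 to 927 lower than all 5, 530 to 715 and 234 to 295 at 4-fold, and 0 to 1 between B6 and 4F (1 without 4F spleen replicate 3). Leaving out was not run on treated libraries.

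Of 4031 alternative values for 96 single-gene values, 3732 kept their direction and side of the threshold, 287 kept the direction and lost the call, and 12 changed sign. The smallest difference of Siglec1 became 0.37 (library totals), 0.068 (tissue-by-strain means), 0.24 (4F alone), -0.58 to 1.23 as single libraries were left out (1.23 without B6 liver replicate 2), 1.04 without 6 libraries (spleens 4F replicate 2 and B6 replicate 2, B6 liver replicate 2, 4F lung replicate 2, 4F skeletal muscle replicate 3, 4F skin replicate 1) and 1.09 without the first 3 of these. The last 2 settings were chosen after seeing the data. With B6 alone Cd74 gave -0.11, Mybl1 -0.36, Cela2a -2.62 and Dsp 2.71, and Dsp gave -3.50 to 2.25 as single libraries were left out (2.25 without 4F skeletal muscle replicate 2). Calls were lost in 29 settings for Il7, 24 for Cd5, 20 for Gp5, 19 for Cd2, 13 for Plin4 and Ccr7, 11 for Gcsam, 10 for Ighg3, Irf8 and Neil1, 9 for Ngp and Ppbp and 8 for Foxp3, and were lost or reversed in 14 for Dsp and 9 for Mybl1. Depth limits low genes such as Nkx3-2, Car14 and Hs3st2.

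The title numbers fall into 5 runs of 6, each holding 1 library of each tissue from mice of 1 strain and sex. No label says that a run is 1 animal. Deviations from tissue-by-strain means correlated over genes between a spleen and the library of its own run at -0.0843 to 0.291. The value was above 0.1 in 16 of 25 pairs, but B6 deviations mirror each other, so each B6 value enters for both spleens. Of the 15 4F pairs 8 were above 0.1, and in 12 the own run gave the highest correlation. Sex was not taken out of these deviations, and only 1 4F run is male, so run and sex cannot be told apart there. A replicate block of these runs, added after seeing the data, gave 1789 genes higher than all 5 and 669 at 4-fold, 576 of them among the 603. Under the block Siglec1 became 0.48 against liver, Cd74 passed against liver (2.32, edgeR adjusted p = 0.0118), and Dsp lost its call (-1.52).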
